A study of Homo sapiens with 4 samples.

Results

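The mRNAs described here are those of 46 genes of the Wnt signalling pathway, out of 26490 genes listed in the gene table of the DHX36 PAR-CLIP experiments. They were taken by symbol, with no use of any measured value: the WNT, FZD, DVL, AXIN, GSK3 and TCF7 genes, LRP5, LRP6, APC, CTNNB1, LEF1, RNF43 and ZNRF3. They fall into 19 secreted ligands, 14 receptors with their membrane-bound regulators, and 13 intracellular members. DHX36 is a DEAH-box helicase that unwinds G-quadruplexes. G-rich RNA folds into these structures when G bases from 4 runs of G form tetrads that stack.

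PAR-CLIP maps where a protein touches RNA. Cells incorporate 4-thiouridine into new transcripts, UV light at 365 nm (5 min here) crosslinks the labelled base to the bound protein, and the RNA recovered with the protein is sequenced. HEK293 lines, of human embryonic kidney origin, carried a stable, tetracycline-inducible FLAG/HA-tagged transgene (500 ng/ml for 15 h), and the endogenous DHX36 gene was present in both. FH-DHX36 is labelled as isoform 2 of the helicase, and FH-DHX36-E335A, which carries a substitution in the helicase motif, is labelled as isoform 1, so that isoform and mutation cannot be told apart in any comparison of the cell lines. The labels list 2 replicates per line, but the gene table gives 1 value per gene and line, so that no spread between replicates and no test could be computed. Crosslinked reads are given here as the authors counted them for each gene. A cluster is a stretch of overlapping reads with T-to-C changes that the authors called as a binding site. Whether every counted read carries such a change is not stated. Summed over genes, FH-DHX36-E335A had 8752127 crosslinked reads and FH-DHX36 had 2160413, a ratio of 4.05, and the table lists no reads for a gene without a cluster. The transgene's own gene, DHX36, had 30909 and 19208 reads in the same order.

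Wnt ligands are secreted glycoproteins that bind Frizzled receptors (FZD) together with the co-receptors LRP5 or LRP6, while the ubiquitin ligases RNF43 and ZNRF3 remove Frizzled from the cell surface. Without a signal, the scaffolds AXIN and APC hold the kinases GSK3A and GSK3B against beta-catenin (CTNNB1), which is phosphorylated and degraded. When a ligand binds, Dishevelled (DVL) recruits AXIN to the membrane, beta-catenin accumulates and activates transcription with TCF7, TCF7L1, TCF7L2 or LEF1.

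Because DHX36 is known for its affinity to G-quadruplexes, the 3'UTRs of the members were searched for 4 runs of at least 2 G separated by 1 to 7 nt, on the sense strand, counting matches that do not overlap. A match is a description of the letters and not a binding site, and the gene table does not give the positions of clusters. The following matches are shown with the runs of G in capitals, 5' to 3', on GRCh37. Each is the match with the most G in its 3'UTR, and the genes were chosen as mRNAs to which the results return: the receptors LRP5 and FZD8, the ligand WNT5A, the intracellular members CTNNB1, GSK3A, GSK3B and DVL3, and FZD2 and WNT9A, which had no cluster.
LRP5, chr11:68216674-68216691, plus strand: GGGGtGGGcaGGGctGGG
FZD8, chr10:35928228-35928248, minus strand: GGGGtGGGGaGGGGGGcgaGG
WNT5A, chr3:55502726-55502747, minus strand: GGGGGGaaatgtGGtttaatGG
CTNNB1, chr3:41281199-41281218, plus strand: GGGctcgaGGGGtGGGctGG
GSK3A, chr19:42734726-42734748, minus strand: GGttgtGGGGaGGGaagagaaGG
GSK3B, chr3:119545404-119545427, minus strand: GGGagatccaGGGGGtGGGaGGGG
DVL3, chr3:183889596-183889611, plus strand: GGcGGGGGGaGGGGGG
FZD2, chr17:42637395-42637417, plus strand: GGGGtcGGGGtgtgctGGtGGGG
WNT9A, chr1:228106633-228106661, minus strand: GGGGcagtagaGGagaaaGGGctgttGGG
In LRP5, GSK3B, FZD2 and WNT9A a match with runs of at least 3 G was also found in the 3'UTR. The G-rich stretches of FZD2 and WNT9A show that such letters stood in mRNAs with and without a cluster.

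To ask which mRNAs of the pathway were bound, genes with at least 1 cluster of any annotation were counted. Of the 46 members, 28 had a cluster in the FH-DHX36-E335A PAR-CLIP and 19 in the FH-DHX36 PAR-CLIP. In the whole table, 34.5% of genes had an FH-DHX36-E335A cluster and 22.4% an FH-DHX36 cluster, and among genes with a coding transcript these shares were 47.8% and 31.0%. The 19 members bound by FH-DHX36 were all bound by FH-DHX36-E335A too, 9 were bound by the latter alone, none by FH-DHX36 alone, and 18 by neither. The members with a cluster carried 198 clusters and 22881 crosslinked reads (0.261% of the total) in FH-DHX36-E335A, and 57 clusters and 5162 reads (0.239%) in FH-DHX36.

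The classes differed in how many members were bound. Of the 19 ligands, 6 had an FH-DHX36-E335A cluster and 3 an FH-DHX36 cluster. Of the 14 receptors, 11 and 7 had one, and of the 13 intracellular members, 11 and 9. The ligands without a cluster were WNT1, WNT2, WNT2B, WNT3A, WNT4, WNT6, WNT7A, WNT8A, WNT8B, WNT9A, WNT9B, WNT10A and WNT16. The receptors without one were FZD2, FZD9 and FZD10, and the intracellular members without one were the transcription factors TCF7 and TCF7L1. RNA abundance could be recovered only for genes with a cluster, and RNA-seq of these cells was not used here, so that whether these 18 genes are expressed in HEK293 was not tested.

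**Figure D1:**
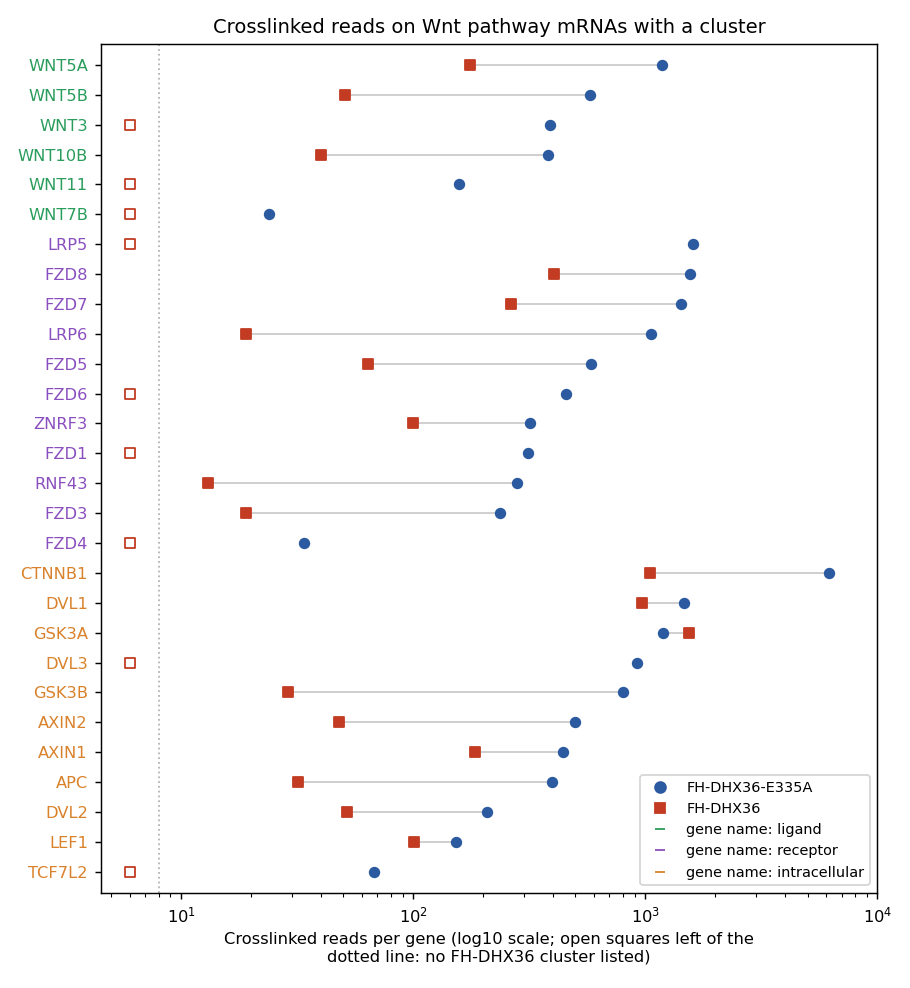
Crosslinked reads per gene (log10 scale) for the 28 members with a cluster, as circles for FH-DHX36-E335A and squares for FH-DHX36, ordered within ligands, receptors and intracellular members. Open squares left of the dotted line mark the 9 genes with no FH-DHX36 cluster. CTNNB1 had the most FH-DHX36-E335A reads, and GSK3A was the 1 member with more reads in FH-DHX36.

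Among the ligands, WNT5A, which signals mainly without beta-catenin, had the most reads. It is annotated at chr3:55499743-55521334 on the minus strand, with 5 exons and a 3'UTR of 4377 nt. It had 1174 crosslinked reads in 19 clusters in FH-DHX36-E335A and 176 reads in 4 clusters in FH-DHX36. In FH-DHX36-E335A, 490 of these were 3'UTR reads, 93 CDS reads, 506 intronic reads and 85 reads outside the 4 annotation categories of the table, so that WNT5A was the ligand with the most intronic reads. In FH-DHX36, 112 reads lay in the 3'UTR and 64 in introns. Its close paralogue WNT5B (chr12:1738397-1756378, plus strand) had 575 and 51 reads. The FH-DHX36-E335A reads of WNT5B were mostly in the 3'UTR (420 reads, with 107 in the CDS and 48 in introns), whereas all 51 FH-DHX36 reads were in the CDS. WNT10B (chr12:49359123-49365518, minus strand), a ligand of the beta-catenin branch, had 381 and 40 reads, of which 172 in FH-DHX36-E335A were in the 5'UTR and 209 in the 3'UTR, and all 40 in FH-DHX36 in the 3'UTR. It was the only ligand with reads in the 5'UTR.

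The other 3 bound ligands had FH-DHX36-E335A clusters alone. WNT3, a ligand of the beta-catenin branch, had 389 reads in 6 clusters, made up of 226 3'UTR reads, 92 CDS reads and 71 intronic reads. WNT11, a ligand of cell polarity and movement, had 157 reads in 1 cluster in the 3'UTR. WNT7B, a ligand of the beta-catenin branch, had 24 reads in 1 cluster in the CDS. At the depth of the FH-DHX36 PAR-CLIP and an equal share of reads, WNT3 would have had 96.0 reads, WNT11 38.8 and WNT7B 5.92. The lowest number listed for any FH-DHX36 gene was 6 reads, which is above the value of WNT7B and below those of WNT3 and WNT11. This minimum is a gene total and not a limit of detection, since clusters are called site by site. Whether depth accounts for the missing clusters was not tested.

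Among the receptors, the co-receptor LRP5 (chr11:68080059-68216743, plus strand, 23 exons) carried the most FH-DHX36-E335A reads. It had 1598 reads, of which 1581 lay in a single cluster in a 3'UTR of 205 nt and 17 in an intron. This amounts to 7712 reads per kb of 3'UTR, against 233 over all genes with a cluster, and was the highest value among the members. The G-run match of LRP5 printed at the start begins 136 nt into this 3'UTR and is the only match there. LRP5 had no FH-DHX36 cluster, although an equal share of reads would have given 394 reads.

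Its homologue LRP6 (chr12:12268959-12419978, minus strand, 23 exons) had 1060 FH-DHX36-E335A reads in 15 clusters, with 591 in the CDS, 370 in a 3'UTR of 5101 nt and 99 outside the annotation categories. In FH-DHX36 it had 19 reads in 1 CDS cluster. The reads of LRP6 were thus spread over many clusters and lay mostly in the CDS, whereas those of LRP5 lay in 1 place.

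FZD8, FZD7 and FZD5 were the Frizzled receptors with the most reads in both PAR-CLIPs. FZD8 (chr10:35927175-35931224, minus strand), a gene of 1 exon, had 1552 reads in FH-DHX36-E335A and 403 in FH-DHX36, with 5 clusters in each. The parts of the mRNA differed: FH-DHX36-E335A had 18 reads in the CDS, 1001 in the 3'UTR and 533 outside the annotation categories, and FH-DHX36 had 252 CDS reads and 151 3'UTR reads. FZD7 (chr2:202898578-202903164, plus strand), also of 1 exon, had 1429 and 264 reads. All of the FH-DHX36-E335A reads of FZD7 were in the 3'UTR, as were 213 of its FH-DHX36 reads, with 28 in the CDS and 23 in the 5'UTR. FZD5 (chr2:208627322-208634630, minus strand) had 581 and 64 reads, all in a 3'UTR of 4384 nt. FZD6 had 453 FH-DHX36-E335A reads, divided between CDS (180) and 3'UTR (178), with 61 in introns and 34 in the 5'UTR, and no FH-DHX36 cluster.

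The remaining receptors had fewer reads. FZD1 had 311 FH-DHX36-E335A reads, 283 of them in the 3'UTR, and FZD4 had 34, all in the 3'UTR. Neither had an FH-DHX36 cluster. FZD3 had 237 reads in 8 FH-DHX36-E335A clusters and 19 in 1 FH-DHX36 cluster, the latter in the CDS. The ligase ZNRF3 had 319 and 100 reads, with 185 and 28 in the 3'UTR and 134 and 72 in the CDS. RNF43, the other ligase of this pair, had 280 FH-DHX36-E335A reads, 218 of them in the 3'UTR, and 13 FH-DHX36 reads, all in an intron.

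Among the intracellular members, CTNNB1, which encodes beta-catenin, had the most reads of all 46 genes in FH-DHX36-E335A. It is annotated at chr3:41240996-41281934 on the plus strand, with 15 exons and a 3'UTR of 1101 nt. It had 6190 reads in 25 FH-DHX36-E335A clusters, which placed it at rank 203 among all genes by reads, and 1051 reads in 11 FH-DHX36 clusters, at rank 438. The FH-DHX36-E335A reads comprised 2936 in the 3'UTR, 620 in the CDS, 248 in the 5'UTR and 2386 outside the annotation categories. The FH-DHX36 reads comprised 746 in the 3'UTR, with 249 in the CDS and 56 in the 5'UTR. In both PAR-CLIPs the 3'UTR was thus the annotation category with the most CTNNB1 reads, at 2667 reads per kb in FH-DHX36-E335A.

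The paralogous kinases GSK3A and GSK3B lay at opposite ends of the comparison of the PAR-CLIPs among the intracellular members with a cluster in both. GSK3A (chr19:42734342-42746754, minus strand) had 1191 reads in 13 FH-DHX36-E335A clusters and 1546 reads in 8 FH-DHX36 clusters, although the latter PAR-CLIP held fewer reads in all. Most lay in the CDS, with 775 in FH-DHX36-E335A and 1283 in FH-DHX36, while the 3'UTR had 361 and 137. GSK3B (chr3:119540168-119813294, minus strand) had 799 reads in 8 FH-DHX36-E335A clusters, of which 773 in a 3'UTR of 5467 nt, and 29 reads in 1 FH-DHX36 cluster, also in the 3'UTR. Other protein-coding genes annotated on the same strand overlap GSK3A, RNF43, AXIN2 and APC, and non-coding genes or pseudogenes overlap GSK3B, FZD8, ZNRF3, FZD3, TCF7L2 and WNT7B, so that reads of these members may be shared with another locus. APC also overlaps a small nuclear RNA gene.

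The 3 Dishevelled mRNAs did not resemble each other. DVL1 (chr1:1270658-1284798, minus strand) had 1462 reads in FH-DHX36-E335A and 969 in FH-DHX36, but 865 and 750 of these lay outside the annotation categories. DVL3 (chr3:183873165-183891402, plus strand) had 919 FH-DHX36-E335A reads, with 511 on the CDS and 389 on the 3'UTR, and no FH-DHX36 cluster, where an equal share would have given 227 reads. DVL2 had 208 FH-DHX36-E335A reads, 184 of them outside the annotation categories and 24 in the 3'UTR, and 52 FH-DHX36 reads in the 5'UTR.

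The scaffolds were bound in both PAR-CLIPs. AXIN2 (chr17:63524681-63557766, minus strand), itself a transcriptional target of beta-catenin, had 498 and 48 reads, of which 477 and 48 were in the 3'UTR. AXIN1 had 441 and 185 reads. Its FH-DHX36-E335A reads were divided between 3'UTR (152), CDS (144), other annotations (101) and 5'UTR (44), and its FH-DHX36 reads between CDS (138) and 5'UTR (47). APC had 398 FH-DHX36-E335A reads, 215 of them in the 3'UTR and 183 in the CDS, and 32 FH-DHX36 reads, all in the CDS. Of the transcription factors, LEF1 had 153 FH-DHX36-E335A reads, 120 of them in the 3'UTR, and 101 FH-DHX36 reads, all outside the annotation categories. TCF7L2 had 68 FH-DHX36-E335A reads in the 3'UTR and no FH-DHX36 cluster.

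Because the PAR-CLIPs differ in depth, each gene's reads were compared as a share of all crosslinked reads, and the log2 ratio of the shares, FH-DHX36-E335A over FH-DHX36, is given with a 95% exact binomial interval. This interval covers counting error only, and reads amplified by PCR are not independent molecules. Of the 19 members with a cluster in both, 9 had a share at least 2-fold higher in FH-DHX36-E335A and 3 a share at least 2-fold higher in FH-DHX36. Over all 5669 genes with a cluster in both, these shares were 28.6% and 24.8%. The median log2 ratio of the members was 0.72, against 0.12 for all such genes, which had quartiles of -0.99 and 1.17. By class, the medians were 1.23 for ligands (3 genes), 1.16 for receptors (7 genes) and -0.02 for intracellular members (9 genes).

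Higher in FH-DHX36-E335A were 2 ligands, 4 receptors and 3 intracellular members. The largest ratio was that of LRP6, at 3.78 (3.13 to 4.52), followed by GSK3B at 2.77 (2.23 to 3.35) and RNF43 at 2.41 (1.61 to 3.34). FZD3 and APC both stood at 1.62, with intervals of 0.95 to 2.38 and 1.10 to 2.19. WNT5B had a ratio of 1.48 (1.06 to 1.92), AXIN2 of 1.36 (0.93 to 1.82), WNT10B of 1.23 (0.76 to 1.74) and FZD5 of 1.16 (0.79 to 1.56). The intervals of FZD3, AXIN2, WNT10B and FZD5 reached below a 2-fold difference. LRP6, RNF43 and FZD3 had fewer than 20 FH-DHX36 reads, in 1 cluster each. The 13 reads of RNF43 were all intronic, so that it has no exonic ratio, and 8 members passed 2-fold in exonic reads. With 10 reads added to each count, FZD5 (0.98) and WNT10B (0.95) fell below 2-fold, which left 7 members.

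Higher in FH-DHX36 were GSK3A, DVL1 and LEF1, all intracellular. GSK3A had a log2 ratio of -2.39 (-2.50 to -2.28), which is 5.26-fold, DVL1 of -1.42 (-1.54 to -1.31) and LEF1 of -1.42 (-1.79 to -1.04). The difference of DVL1 lay in its reads outside the 4 annotation categories, and its exonic reads, scaled to all exonic reads, gave 0.12. LEF1 had no exonic FH-DHX36 reads, so that GSK3A alone remained past 2-fold in this direction in both counts, while AXIN1 (-1.13) and DVL2 (-3.12) passed it in exonic reads alone. Among the 7 members with the most FH-DHX36-E335A reads and a cluster in both, FZD8 had a ratio of -0.07, FZD7 of 0.42, CTNNB1 of 0.54 and WNT5A of 0.72, within 2-fold, while LRP6, DVL1 and GSK3A lay past it. In exonic reads, CTNNB1 had -0.15 and FZD8 -0.67.

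**Figure D2:**
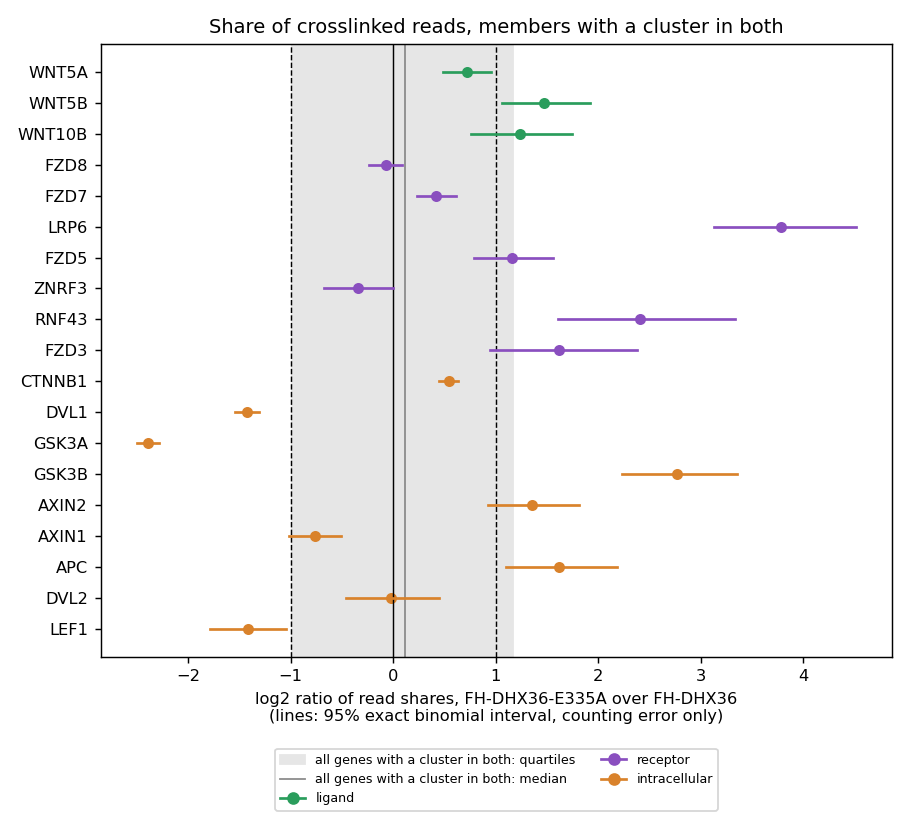
The log2 ratio of read shares, FH-DHX36-E335A over FH-DHX36, for the 19 members with a cluster in both, where points are the ratios, lines their 95% exact binomial intervals (counting error only) and dashed lines a 2-fold difference. The grey band spans the quartiles of all 5669 genes, from -0.99 to 1.17, and LRP6, GSK3B and RNF43 lie farthest above it and GSK3A farthest below.

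Members with an FH-DHX36-E335A cluster alone made up 9 of 28, against 37.9% of all genes that FH-DHX36-E335A bound. Those 9 were WNT3, WNT7B, WNT11, FZD1, FZD4, FZD6, LRP5, DVL3 and TCF7L2. At an equal share of reads, the lowest value was that of WNT7B (5.92), below 6 reads, the lowest gene total listed for FH-DHX36. The highest values were those of LRP5, DVL3, FZD6 (112) and WNT3 (96.0). These are sums over a gene, and whether they would suffice for a cluster to be called was not tested. Among the 2344 genes with at least 900 FH-DHX36-E335A reads, 121 had no FH-DHX36 cluster (5.16%), and LRP5 and DVL3 were among these. The threshold of 900 reads was set with the values of LRP5 and DVL3 known. Why the FH-DHX36 PAR-CLIP lists no cluster on them was not tested.

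To compare where on the mRNA the crosslinks lay, reads in the 3'UTR were taken as a share of reads in the 5'UTR, CDS and 3'UTR, with 95% Wilson intervals for counting error. Over all members, this share was 74.9% (74.3 to 75.5) in FH-DHX36-E335A and 42.3% (40.8 to 43.9) in FH-DHX36. The same shares over all genes were 71.9% and 51.4%. The class values in FH-DHX36-E335A were 75.5% for ligands, 84.0% for receptors and 67.3% for intracellular members, and in FH-DHX36 they were 74.9%, 52.5% and 37.1%. The FH-DHX36 shares rested on the gene with the most exonic reads. Without GSK3A, the share over all members was 60.2% and that of the intracellular members 62.6%. Without WNT5A, the share of the ligands was 43.96%, over the 51 reads of WNT5B and the 40 of WNT10B, and without FZD8 that of the receptors was 65.5%, so that the order of the classes in FH-DHX36 did not hold.

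Counted by gene, the 3'UTR held most exonic reads for 22 of the 28 members with exonic reads in FH-DHX36-E335A and for 8 of 17 in FH-DHX36. Over all genes with exonic reads, this held for 5458 of 8531 and for 2403 of 5025, so that the fall was not particular to the members. FZD5, GSK3B, AXIN2 and WNT10B had only 3'UTR reads in FH-DHX36, whereas WNT5B, LRP6, FZD3 and APC had only CDS reads there. Since regions differ in length, the density was also computed over the summed lengths of canonical transcripts. In FH-DHX36-E335A, members had 190 reads per kb of 3'UTR, 59.6 per kb of CDS and 62.5 per kb of 5'UTR, against 233, 88.4 and 182 for all genes with a cluster. In FH-DHX36 the members had 34.7, 47.4 and 19.2, against 63.9, 53.4 and 142. The member densities were thus below those of all genes in each region, with the 5'UTR the farthest below. These are raw reads, not set against RNA abundance. In the measure that is (NXPM, below), taken per kb of transcript, the median of bound members was above that of all genes. It was 3.61 against 1.59 in FH-DHX36-E335A and 3.39 against 2.02 in FH-DHX36.

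**Figure D3:**
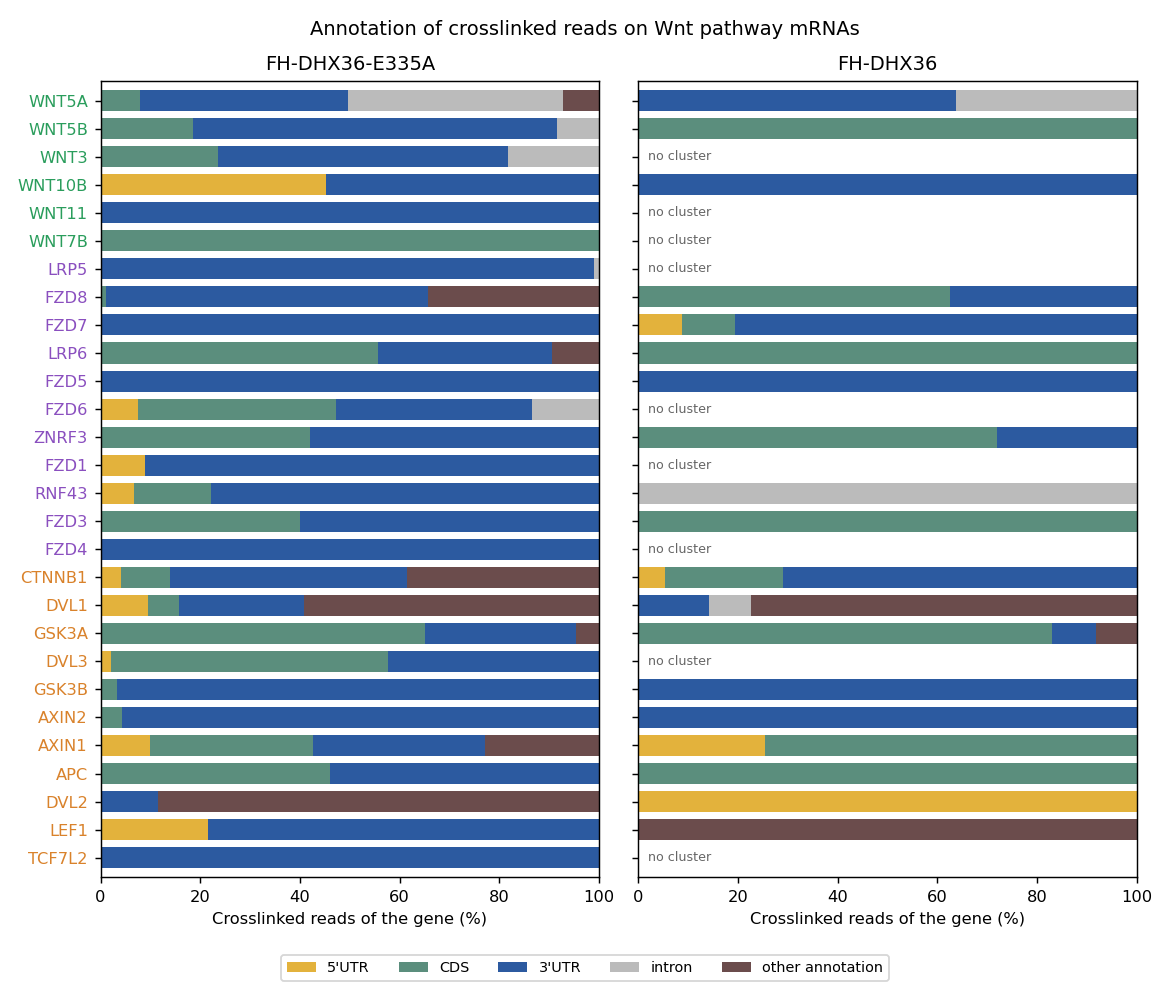
Annotation of the crosslinked reads of each bound member, as percent of the reads of the gene, in FH-DHX36-E335A (left) and FH-DHX36 (right), with gene names coloured as ligands (green), receptors (purple) and intracellular members (orange). Reads in the 3'UTR make up most of the bars on the left, while CDS reads fill the bars of WNT5B, LRP6, FZD3 and APC on the right.

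Reads also depend on how much of an mRNA a cell makes. NXPM, the measure the authors deposited for this, is the share of all crosslinked reads that a gene holds, set against its RNA abundance. The abundance recovered from these values ranged from 0.164 for FZD4 to 32.4 for GSK3A among members with an FH-DHX36-E335A cluster. Its median was 1.30 for ligands, 2.21 for receptors and 4.93 for intracellular members, and 5.89 for all genes with such a cluster. CTNNB1, at 25.1, was the second most abundant member. In NXPM per kb of canonical transcript, FZD7 (16.1), WNT5A (14.2), WNT3 (13.6) and WNT11 (10.9) were the highest members in FH-DHX36-E335A, and FZD7 (12.1), FZD8 (10.2), GSK3A (10.1) and WNT5A (8.65) in FH-DHX36. The first list is led by genes of low abundance, and FZD7 and WNT5A stand in both. NXPM here counts reads of every annotation, whereas the length is that of the exons. Of the WNT5A reads, 506 of 1174 in FH-DHX36-E335A and 64 of 176 in FH-DHX36 were intronic. The values of WNT5A per kb thus rest in part on reads outside that length.

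In FH-DHX36-E335A, the median NXPM per kb was 10.1 for ligands, 3.45 for receptors and 2.38 for intracellular members, against 1.59 for all genes. In FH-DHX36, it was 3.45, 3.39 and 3.23, against 2.02. Bound ligands thus had the highest median per kb in FH-DHX36-E335A, over 6 genes, and the classes lay close together in FH-DHX36. Intronic reads, 23.1% of the ligand reads in FH-DHX36-E335A, are counted in these values. No member had an NXPM above 100 in either PAR-CLIP, a level passed by 5.18% of genes with a cluster in FH-DHX36-E335A and 6.78% in FH-DHX36. The highest NXPM values were 83.2 for WNT5A in FH-DHX36-E335A and 55.3 for FZD7 in FH-DHX36. At a given number of reads, NXPM is higher the lower the abundance, and the part of this in the class medians was not tested.

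**Figure D4:**
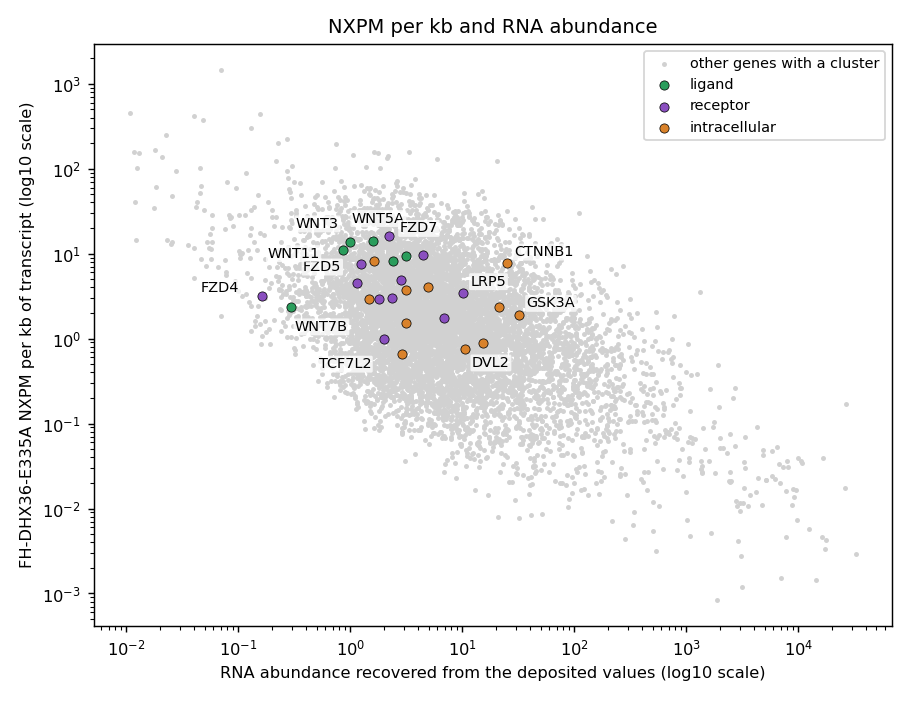
FH-DHX36-E335A NXPM per kb of canonical transcript against recovered RNA abundance (both on log10 scales), with members in colour by class and other genes with a cluster, a coding transcript and an abundance of at least 0.01 in grey. Bound ligands lie at low abundance with values up to 14.2 per kb for WNT5A, and CTNNB1 (7.69 per kb) combines high abundance with a high value. Reads of every annotation, introns among them, are counted over the exon length.

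The G-run matches introduced at the start were found in the 3'UTR of 41 of the 46 members, against 65.2% of 17768 coding genes of the table and 71.7% of the coding genes with an FH-DHX36-E335A cluster. The 3'UTRs of the members were also longer, with a median of 1732.5 nt against 1098 nt for the coding genes. Per kb of 3'UTR, there were 1.51 matches in members with a cluster in both PAR-CLIPs, 1.63 in those with an FH-DHX36-E335A cluster alone and 3.03 in those without a cluster, against 1.84 over the coding genes. A match was found in 18 of 19, 7 of 9 and 16 of 18 members in the same order. The members without a cluster thus held the most matches per kb, with 22 in WNT2B, 16 in WNT9A, and 12 each in WNT3A and WNT7A. Of these 18 members, 13 are ligands, and their expression in these cells was not tested. The median GC content of their 3'UTRs was 50.4%, against 41.5% for members with a cluster in both. The values therefore do not show how matches relate to binding. APC, FZD6, TCF7L2, WNT8A and WNT16 had none, and the first 3 of these had 3'UTR reads in FH-DHX36-E335A. With runs of at least 3 G, 9 members had a match (DVL1, GSK3B, AXIN2, LRP5, FZD2, FZD10, WNT7A, WNT9A and WNT9B), or 19.6%, against 14.5% of the coding genes.

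Further genes of the pathway were counted in the same way. Of 57 genes listed by role, 32 had an FH-DHX36-E335A cluster, 24 an FH-DHX36 cluster and 23 both. In the whole table, 34.5% and 22.4% of genes had one, and among genes with a coding transcript 47.8% and 31.0%. Of the 23 with both, 8 were at least 2-fold higher in share in FH-DHX36-E335A and 4 in FH-DHX36. Over all genes with a cluster in both, these shares were 28.6% and 24.8%. Unlike the members, some of these pathway genes had an NXPM above 100. They were CSNK1E, AMER1 (225) and PYGO1 (170) in FH-DHX36-E335A, and CSNK1E, BCL9L (322) and TLE3 (159) in FH-DHX36. The level was passed by 5.18% and 6.78% of all genes with a cluster. Recovered abundance was 0.200 for AMER1, 0.431 for PYGO1, 0.207 for BCL9L and 6.92 for TLE3. Among partners and regulators of the destruction complex, 13 and 10 of 16 had a cluster, with the most FH-DHX36-E335A reads on the casein kinases CSNK1E (3447, and 1362 in FH-DHX36) and CSNK1A1 (2511 and 229). For CSNK1E no RNA abundance was recovered, and its NXPM was 393847 and 630435. Of its reads, 676 in FH-DHX36-E335A and 778 in FH-DHX36 were intronic. Among nuclear cofactors, 10 and 11 of 13 had one, led in FH-DHX36-E335A by the co-repressor TLE3 (5514 and 2380) and the beta-catenin coactivator PYGO2 (1150 and 228). Of 5 alternative receptors, 4 and 1 had one, with PTK7 (1550 and 549) and ROR1 (380 and none) first. WLS, the carrier of Wnt ligands to the cell surface, had 2111 and 491 reads, and PORCN, which acylates them, had no cluster. The role of inhibitors held 14 genes, which were secreted inhibitors and also KREMEN1 and KREMEN2, membrane receptors for the DKK inhibitors. Only SFRP1 (326 reads) and KREMEN1 (128 reads) of these had a cluster, in FH-DHX36-E335A alone. Of 7 secreted agonists and their receptors, 2 and 1 had one, LGR4 with 238 and 43 reads and LGR5 with 43 FH-DHX36-E335A reads in an intron. Inhibitors, the KREMEN receptors included, were thus the role with the smallest share of genes bound. Ligands were the class with the smallest share among the members. Whether the unbound genes are expressed in these cells was not tested.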

How the data were processed

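The authors sequenced PAR-CLIP libraries of 2 cell lines with 2 replicates each, demultiplexed them with bcl2fastq 2.17.1, mapped reads to hg19, called clusters with PARalyzer in PARpipe, and assigned them to GENCODE annotation categories. Numbers of clusters and crosslinked read counts were deposited as 1 column per cell line, without normalization and without replicates. The authors also deposited NXPM, a score that sets these reads against RNA abundance. No column belonged to other samples.

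Depth was 8752127 and 2160413 crosslinked reads. The planned edgeR test was not run, since single replicates have no column, and no p-value was computed. RNA abundance was recovered as each gene's reads, scaled to the total as in NXPM, over NXPM, minus a constant of 0.001, and its unit is that of the authors' RNA-seq quantification. Reads outside the 4 categories are those of the gene minus 5'UTR, CDS, 3'UTR and intron. Shares have 95% Wilson intervals and ratios 95% exact binomial intervals, for counting error only. Lengths and sequences came from canonical transcripts of GENCODE release 44 on GRCh37, the build hg19 names, which matched all 46 members. Of 681 G-run matches, the 632 within 1 exon were checked against the genome and were identical. The matches of FZD3 and FZD6 were not among the 681 and were not checked. Calculations used python 3.11.15, pandas 2.3.3, numpy 2.4.6 and scipy 1.17.1, and were tested on simulated data.

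The 6 members of each class with the most FH-DHX36-E335A reads were described in full, with all members past 2-fold, all without a cluster, all with at least 100 reads and most of them outside the 3'UTR, and the 2 further pathway genes with the most reads in each role. The printed sequences, the threshold of 900 reads and other singled-out genes were chosen after values were seen. Members, lists and settings were chosen with earlier results of these data known.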

Additional observations from a re-analysis of the deposited data

How the results depend on the processing

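No paired analysis was possible because the columns carry no replicate numbers, and leaving out a replicate was not possible for the same reason. Of the values that answer a comparison, 22 stayed within their spread or within 1.5 times under an alternative, and 11 moved. Requiring at least 2 clusters left 10 members in FH-DHX36. The 3'UTR share of exonic reads was 60.1% and 49.0% when clusters were counted (FH-DHX36-E335A and FH-DHX36), 78.1% and 37.5% as the median over members, and 60.2% in FH-DHX36 without GSK3A. The share was the higher in FH-DHX36-E335A in each of these settings. At an NXPM above 50, 3 and 2 members passed. With the longest transcript, the 5'UTR held 44.1 and 12.96 reads per kb. Runs of at least 3 G left 9 members with a match. Scaling exonic reads to exonic totals turned the log2 ratio of DVL1 to 0.12, since most of its reads lie outside the annotation categories. The same setting moved CTNNB1 to -0.15, FZD8 to -0.67, AXIN1 to -1.13 and DVL2 to -3.12, past 2-fold for the last 2.

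The limits are 1 value per gene and cell line, a median of 64 FH-DHX36 reads over the 19 shared members, no positions of clusters, and no abundance recovered for genes without a cluster.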

Other observations

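Base composition of the 3'UTR also differed among the members by binding. The median GC content was 41.5% for members with a cluster in both PAR-CLIPs, 43.4% for those with an FH-DHX36-E335A cluster alone and 50.4% for those without a cluster, against 42.4% over the coding genes. The pentamer AUUUA, the core of AU-rich elements, occurred 2.99, 2.24 and 1.78 times per kb of 3'UTR in the same order, against 2.28 over the coding genes. The most occurrences were in FZD3 (45), LRP6 (20), WNT2B (19), FZD1 (16) and WNT5A (15), of which WNT2B had no cluster. GSK3A and AXIN1, which had clusters, and WNT3A, WNT8A and WNT8B, which had none, held no AUUUA. These values describe 3'UTRs that also differ in length, and no test was made. Of the 18 members without a cluster, 13 are ligands, and whether those 18 are expressed in these cells was not tested.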
